A study of Mus musculus with 6 samples.

Results

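A set of 7 genes of red cells and their hemoglobin were followed through the sciatic nerve libraries: the adult alpha globin genes Hba-a1 and Hba-a2, the adult beta globin genes Hbb-bs and Hbb-bt, the heme synthesis gene Alas2, and the red cell membrane genes Slc4a1 and Epb42. They are 7 of the 59485 genes in the deposited table, and each symbol matched 1 row. They were chosen by name because red cell transcripts were lower in the mutant animals, so the difference between the groups in these 7 genes is given as a description, with no test. Sciatic nerves were taken at postnatal day 4 (P4) from 3 control and 3 mutant mice, and each animal gave 1 library of oriented cDNA from poly-A RNA. Per the labels the controls are wild-type, a name that the study's methods use for Adar1fl/fl;R26R or Adar1fl/+;R26R animals without Cre, so floxed alleles and the R26R YFP reporter can be present in both groups. The mutants are HtPA-Cre; Adar1fl/fl; R26R, in which the Cre of the HtPA transgene is directed to neural crest cells, the source of Schwann cells and not of blood. Each library is of whole nerve with its vessels and the blood in them, and whether animals were perfused is not given in the sources used here. Adar, the targeted gene, had normalised read counts of 1602, 2066 and 1133 in libraries labelled control. Those labelled mutant had 11768, 9311 and 9773, a higher level (log2 fold change 2.72 ± 0.20 SE, limma, Benjamini-Hochberg adjusted p = 4.1e-05). Gene-level reads from whole nerve do not show whether the floxed allele was recombined in neural crest cells, which was not tested. The groups are therefore called by their labels.

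Hemoglobin is a tetramer of alpha and beta chains, each of which holds a heme that binds oxygen. Alas2 makes the enzyme of the first step of heme synthesis in erythroid cells, Slc4a1 makes the anion exchanger that swaps chloride for bicarbonate across the red cell membrane, and Epb42 makes a protein that binds this exchanger to the membrane skeleton. Mature red cells have no nucleus, and the globin RNA of blood sits mostly in young red cells, the reticulocytes. Mice carry the adult beta genes in haplotypes with different gene names, and the deposited table gives Hbb-bs and Hbb-b1 as names of 1 row, and Hbb-bt and Hbb-b2 as names of another.

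The alpha genes lie near each other on the plus strand of chromosome 11 in mm10, with the globin gene Hbq1b between them. Hba-a1 (GSMG0052730) is at 32283671 to 32284489 and Hba-a2 (GSMG0052731) at 32296488 to 32297309. The beta genes lie on the minus strand of chromosome 7, Hbb-bt (GSMG0036387) at 103812524 to 103813926 and Hbb-bs (GSMG0036388) at 103826523 to 103827988. Both pairs are near copies, which bears on what the values of single genes mean. The coding sequence has 426 bases in both alpha genes, with 1 mismatch, and 441 bases in both beta genes, also with 1 mismatch (GENCODE models on the same assembly). The stretches that hold these mismatches are shown since no other coding base tells the genes of a pair apart; the capital marks the base that differs, positions count from 1 at the first base of the start codon, and the stretches span coding bases 351 to 411 of the alpha genes (C381T from Hba-a1 to Hba-a2) and 381 to 441 of the beta genes (C417T from Hbb-bs to Hbb-bt).
Hba-a1: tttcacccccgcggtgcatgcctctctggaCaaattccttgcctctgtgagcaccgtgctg
Hba-a2: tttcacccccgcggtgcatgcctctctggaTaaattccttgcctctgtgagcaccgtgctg
Hbb-bs: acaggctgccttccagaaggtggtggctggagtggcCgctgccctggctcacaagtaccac
Hbb-bt: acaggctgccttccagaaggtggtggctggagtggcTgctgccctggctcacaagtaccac

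Of all windows as long as a read (130 bases) in the transcripts of Hba-a1, 50.2% are also found in Hba-a2, and the same holds for 67.3% of the windows of Hba-a2. The beta genes share 60.3% of the windows of Hbb-bs and 52.4% of those of Hbb-bt. How reads that map to both copies were counted is not given in the sources used here, so the split of reads within a pair is uncertain and the sums of the pairs are given after the single genes. Alas2, Slc4a1 and Epb42 have no window in common with another gene.

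The promoters of the genes are shown because 6 of the 7 genes were lower in the mutant-labelled group with no overlap, the contrast on which they were chosen, and because the alpha genes share theirs almost entirely. The 250 bases before the start site come from RefSeq on GRCm38.p6, the assembly that mm10 stands for, and 6 of the 7 genes matched an entry (Slc4a1 did not). Each is read 5′ to 3′ on the strand of its gene, and capitals mark matches, on either strand, to GATA with A or T before it and A or G after it (letters that GATA factors bind), to CACCC (letters that Klf1 and its relatives bind), to CCAAT and to the TATAA of the TATA box. Where matches overlap or touch, the capitals run on.
Hba-a1 (chr11:32283422-32283671, plus strand): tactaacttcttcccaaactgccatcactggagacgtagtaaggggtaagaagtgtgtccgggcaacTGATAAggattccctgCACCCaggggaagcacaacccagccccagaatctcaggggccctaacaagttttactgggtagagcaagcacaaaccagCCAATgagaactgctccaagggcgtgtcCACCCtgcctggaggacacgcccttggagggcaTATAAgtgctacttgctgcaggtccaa
Hba-a2 (chr11:32296242-32296491, plus strand): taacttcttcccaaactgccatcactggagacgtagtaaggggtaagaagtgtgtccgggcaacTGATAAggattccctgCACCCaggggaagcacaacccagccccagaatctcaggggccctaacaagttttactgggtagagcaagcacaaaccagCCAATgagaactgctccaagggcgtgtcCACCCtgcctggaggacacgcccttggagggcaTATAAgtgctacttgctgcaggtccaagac
Hbb-bs (chr7:103827929-103828178, minus strand): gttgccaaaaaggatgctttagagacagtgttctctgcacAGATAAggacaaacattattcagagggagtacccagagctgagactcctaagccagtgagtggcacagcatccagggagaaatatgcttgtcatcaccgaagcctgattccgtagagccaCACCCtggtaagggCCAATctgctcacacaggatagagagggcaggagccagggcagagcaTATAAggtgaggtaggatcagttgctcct
Hbb-bt (chr7:103813924-103814173, minus strand): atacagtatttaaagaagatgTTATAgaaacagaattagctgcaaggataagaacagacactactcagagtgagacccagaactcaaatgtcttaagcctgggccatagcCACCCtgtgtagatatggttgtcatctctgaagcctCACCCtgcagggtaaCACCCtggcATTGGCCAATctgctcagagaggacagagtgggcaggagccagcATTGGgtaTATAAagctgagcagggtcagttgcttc
Alas2 (chrX:150547167-150547416, plus strand): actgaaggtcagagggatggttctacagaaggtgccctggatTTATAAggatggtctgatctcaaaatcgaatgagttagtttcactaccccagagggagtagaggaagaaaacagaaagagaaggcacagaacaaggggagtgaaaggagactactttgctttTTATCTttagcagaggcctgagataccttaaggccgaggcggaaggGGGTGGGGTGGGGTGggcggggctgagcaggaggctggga
Epb42 (chr2:121036878-121037127, minus strand): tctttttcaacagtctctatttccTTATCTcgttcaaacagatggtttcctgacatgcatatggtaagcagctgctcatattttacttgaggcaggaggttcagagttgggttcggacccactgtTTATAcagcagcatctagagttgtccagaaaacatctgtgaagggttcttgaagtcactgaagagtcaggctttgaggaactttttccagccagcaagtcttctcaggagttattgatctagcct

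The alpha promoters share an unbroken run of 247 of the 250 bases, whereas the longest run shared by the beta promoters is 14 bases. Hba-a1, Hba-a2 and Hbb-bs each held a match to all 4 motifs, which 1.08% of 32851 mouse promoter windows of this length did. The TATAA match lay 23 to 27 bases before the start site in Hba-a1 and 25 to 29 bases before it in Hbb-bs. Hbb-bt held 3 CACCC and 3 CCAAT matches and none of the GATA letters, and Alas2 held 3 CACCC matches in a row and no CCAAT match. The window of Epb42, the gene that did not follow the others, held 1 GATA and 1 TATAA match. Each motif on its own is frequent, with GATA letters in 26.5%, CACCC in 52.0%, CCAAT in 33.8% and TATAA in 22.8% of the windows, and a match is a description of the letters only.

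The deposited values are reads on each gene divided by a size factor of the library, so that a value is comparable between libraries and is here called a normalised read count. Every library had between 50938349 and 78250094 reads on genes, and 1 read was worth between 0.727 and 1.27. In the libraries labelled mutant the 10 most abundant genes took 9.87 to 14.4% of the reads, against 17.6 to 18.7% in the control-labelled ones. Schwann cell markers, which check the tissue, had summed normalised read counts of 1131501 to 1498913 in the control-labelled and 52397 to 207401 in the mutant-labelled libraries, and 4 of the 7 were past the threshold and lower. A gene was past the threshold when limma gave an unadjusted p of at most 0.05 together with a 2-fold difference or more on log2(value + 1), in a fit over the 25802 genes with a mean of at least 10 in at least 1 group. On this scale the fold change of a gene with few reads is shrunk towards 0. Of all these genes, 10.4% were lower and 13.9% were higher past the threshold (8.46 and 11.5% with an adjusted p at or under 0.05 as well, 24.2% in either direction), and the median log2 fold change was 0.03.

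Hba-a1 had normalised read counts of 27466, 20735 and 25231 in the control-labelled libraries, given here and below in the order of replicates 1 to 3. In the mutant-labelled ones it had 1867, 2467 and 5835. The lowest control-labelled library lay far above the highest mutant-labelled one, and mutant-labelled replicate 3 was the highest of its group. The log2 fold change was −3.02 ± 0.36 (SE, n = 3 per group), and the mean was 7.22 times lower in the mutant-labelled libraries, or 11.3 times without mutant-labelled replicate 3.

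Hba-a2, the other alpha gene, had 14496, 10791 and 13910 in the control-labelled libraries and 1026, 1332 and 3019 in the mutant-labelled ones. The groups were again apart, with the libraries in the same order as for Hba-a1. The log2 fold change was −3.01 ± 0.35.

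Hbb-bs, the beta gene with more reads, had 27366, 18258 and 24072 in the control-labelled libraries and 1883, 2399 and 5708 in the mutant-labelled libraries. The order of the libraries was that of the alpha genes, and the log2 fold change was −2.95 ± 0.36. Hbb-bt, the other adult beta gene, had 6891, 4573 and 4148 against 288, 411 and 983, with a log2 fold change of −3.37 ± 0.41. In the control-labelled group replicate 3 was the lowest library for Hbb-bt, while replicate 2 was the lowest for the other globin genes.

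The alpha pair, Hba-a1 and Hba-a2, summed to 41961, 31526 and 39142 normalised reads in the control-labelled libraries, against 2893, 3800 and 8853 in those labelled mutant. The beta pair, Hbb-bs and Hbb-bt, summed to 34257, 22832 and 28219, against 2171, 2810 and 6691. Neither sum overlapped between the groups, and the control-labelled means were 7.25 and 7.31 times the mutant-labelled ones. Without mutant-labelled replicate 3 these ratios were 11.2 and 11.4.

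Together the 4 globin genes came to 1241, 838 and 1044 reads per 1000000 reads on genes (RPM) in the control-labelled libraries, against 89.0, 116 and 275 in the mutant-labelled ones. The mean of the control-labelled libraries (1041 ± 201, SD, n = 3) was 6.50 times that of the mutant-labelled libraries (160 ± 101), and the lowest control-labelled library had 3.04 times the share of the highest mutant-labelled one. Without mutant-labelled replicate 3 the ratio of the means was 10.2. The 95% Wilson interval was narrow beside these differences, from 86.9 to 91.1 RPM in mutant-labelled replicate 1 and from 271 to 280 in replicate 3. Such intervals cover counting error only, since reads amplified by PCR without molecular identifiers are not independent molecules. In whole nerve, fewer red cells and less RNA per red cell cannot be told apart.

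**Figure D1:**
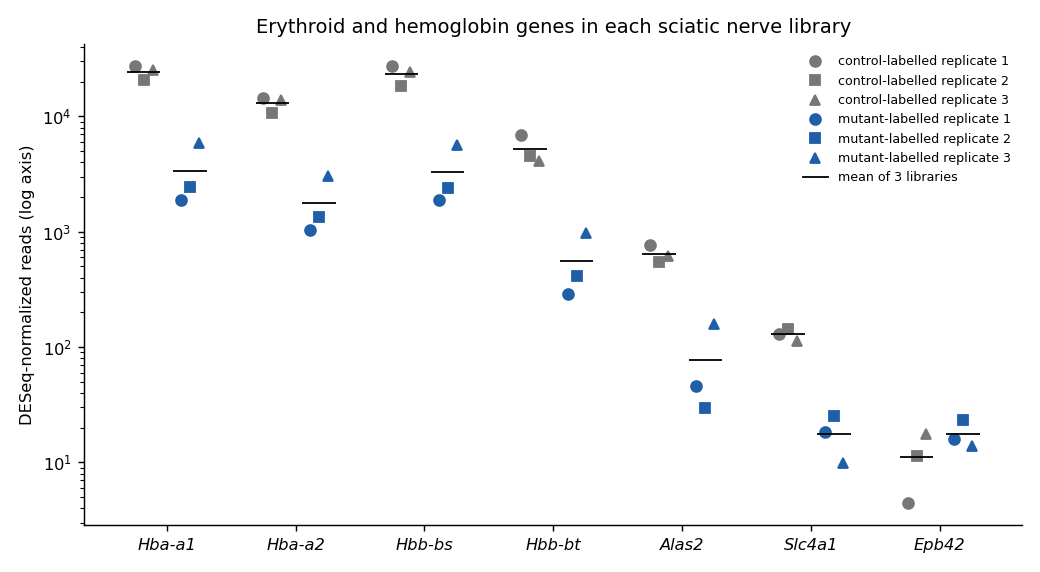
Normalised read counts (log axis) of the 7 genes in the 3 control-labelled (grey) and 3 mutant-labelled (blue) libraries, with a line at each group's mean. In 6 genes all mutant-labelled values lie below all control-labelled values, and in Epb42 the groups overlap between 13.8 and 17.7.

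Alas2 (GSMG0042186, chromosome X, 150547417 to 150570622, plus strand) had normalised read counts of 774, 547 and 613 in the control-labelled libraries and 45.8, 29.9 and 158 in the mutant-labelled libraries. The groups did not overlap, and mutant-labelled replicate 3 stood above the other two as it did for the globins. The log2 fold change was −3.38 ± 0.54 (SE), and the mean was 8.27 times lower. Without mutant-labelled replicate 3 these came to −4.07 and 17.0.

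Slc4a1 (GSMG0007445, chromosome 11, 102348820 to 102365282, minus strand) had 131, 144 and 114 against 18.2, 25.1 and 9.89. The groups did not overlap, but the order of the mutant-labelled libraries was the reverse of the order for Alas2, with replicate 3 the lowest at 10 reads. The log2 fold change was −2.88 ± 0.45, and the mean was 7.31 times lower.

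Epb42 (GSMG0023426, chromosome 2, 121017891 to 121036877, minus strand) had 4.44, 11.3 and 17.7 in the control-labelled libraries and 16.0, 23.2 and 13.8 in the mutant-labelled ones. These values rest on 4 to 24 reads, the groups overlapped, and the fitted log2 fold change was 0.76 ± 0.69, so that the fall which the choice of the genes assumes was not seen in Epb42. On the other strand, Hbb-bt overlaps 6 genes of the table, Hba-a2 4, Alas2 3, and Hbb-bs and Epb42 1 each, whereas none of the 7 overlaps another gene on its own strand, and the cDNA was oriented.

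All 7 genes passed the filter on low values, and 6 of the 7 had all mutant-labelled values below all control-labelled values. Among all tested genes this was so for 23.3% (the reverse held for 25.9%), and since the genes were chosen on this contrast nothing is read from the comparison. The median log2 fold change of the 7 was −3.01. The 6 that fell spanned a range from −3.38 (Alas2) to −2.88 (Slc4a1), and 533 tested genes (2.07%) had a log2 fold change as low as that of Slc4a1. Leaving out mutant-labelled replicate 3, the highest for the globins and Alas2, moved the median to −3.47.

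Per kilobase of transcript, the control-labelled means were 36994 normalised reads for Hbb-bs, 35018 for Hba-a1, 23584 for Hba-a2, 7403 for Hbb-bt, 317 for Alas2, 28.5 for Slc4a1 and 2.72 for Epb42. The order was almost the same in the mutant-labelled libraries, with 5302, 4849, 3235, 798 and 38.3 for the first 5 genes, but Epb42 (4.29) then stood above Slc4a1 (3.90). Compared within libraries, Hbb-bs was above Hba-a1 in each mutant-labelled one (2999 against 2671, 3819 against 3529 and 9089 against 8347). In the control-labelled group it was above in replicates 1 and 3 and below in replicate 2 (29074 against 29664). In the mutant-labelled group Slc4a1 was above Epb42 in replicate 1 and below it in replicates 2 and 3. The lengths are those of GENCODE transcripts, while the authors counted reads on constitutive regions, so these levels are approximate.

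The proportions between the alpha genes, and between alpha and beta, were alike in all libraries. The ratio of Hba-a1 to Hba-a2 was 1.89, 1.92 and 1.81 in the control-labelled libraries, against 1.82, 1.85 and 1.93 in those labelled mutant, and the ratio of the alpha sum to the beta sum was 1.22, 1.38 and 1.39 against 1.33, 1.35 and 1.32. Both ratios overlapped between the groups, while the sum of all 4 globin genes differed 7.27-fold. The ratio of Hbb-bs to Hbb-bt differed more, at 3.97, 3.99 and 5.80 in the control-labelled libraries and 6.54, 5.84 and 5.81 in the mutant-labelled ones. Control-labelled replicates 1 and 2 stood apart from the other 4 libraries, and control-labelled replicate 3 was next to the mutant-labelled ones.

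**Figure D2:**
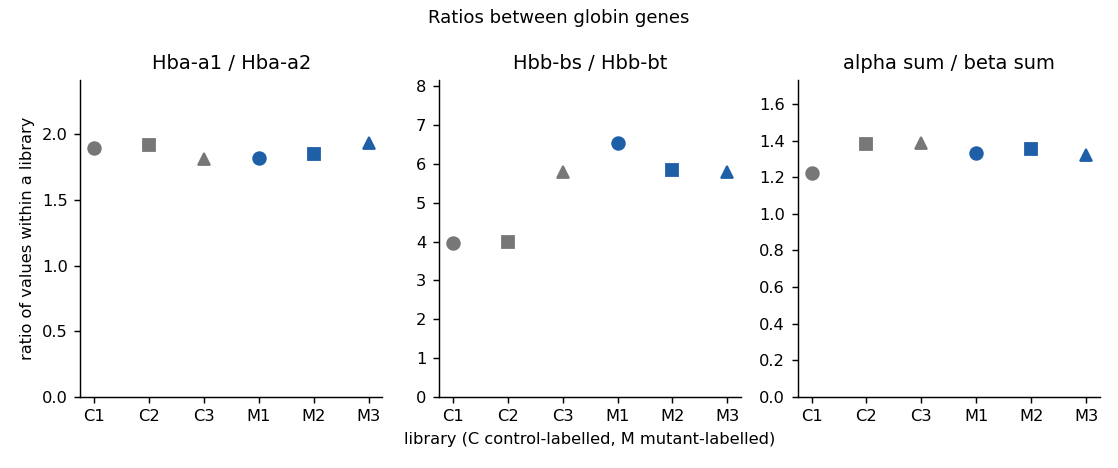
Ratio of normalised read counts within each library (C control-labelled, M mutant-labelled replicates 1 to 3) for the alpha genes, the beta genes and the alpha against the beta sum. The first and last ratio stay near 1.87 and 1.33 in both groups, whereas Hbb-bs to Hbb-bt is near 4 in 2 control-labelled libraries and 5.80 to 6.54 in the other 4.

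Alas2 followed the globins. It came to 1.02, 1.01 and 0.911% of the globin sum in the control-labelled libraries and 0.905, 0.453 and 1.02% in the mutant-labelled ones, overlapping values, of which mutant-labelled replicate 2 was the lowest. Slc4a1 came to 0.172, 0.264 and 0.169% of the globin sum against 0.359, 0.380 and 0.0636%, so the mutant-labelled libraries lay on both sides of the control-labelled ones.

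Within the groups, the globin genes and Alas2 moved together and Slc4a1 moved the other way. Over the deviations of the 6 libraries from their group means, which leave 4 degrees of freedom, Pearson's r was between 0.932 and 0.998 for every pair of globin genes and between 0.85 and 0.89 for Alas2 with a globin gene. Slc4a1 had r between −0.82 and −0.69 with the globin genes and −0.95 with Alas2. Genes of 1 library share its RNA and its size factor, the near copies share reads, and mutant-labelled replicate 3 had the largest deviation for the globins (0.91 to 1.01 on the log2 scale), for Alas2 (1.38) and for Slc4a1 (−0.69), so that library weighs most in these r values.

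**Figure D3:**
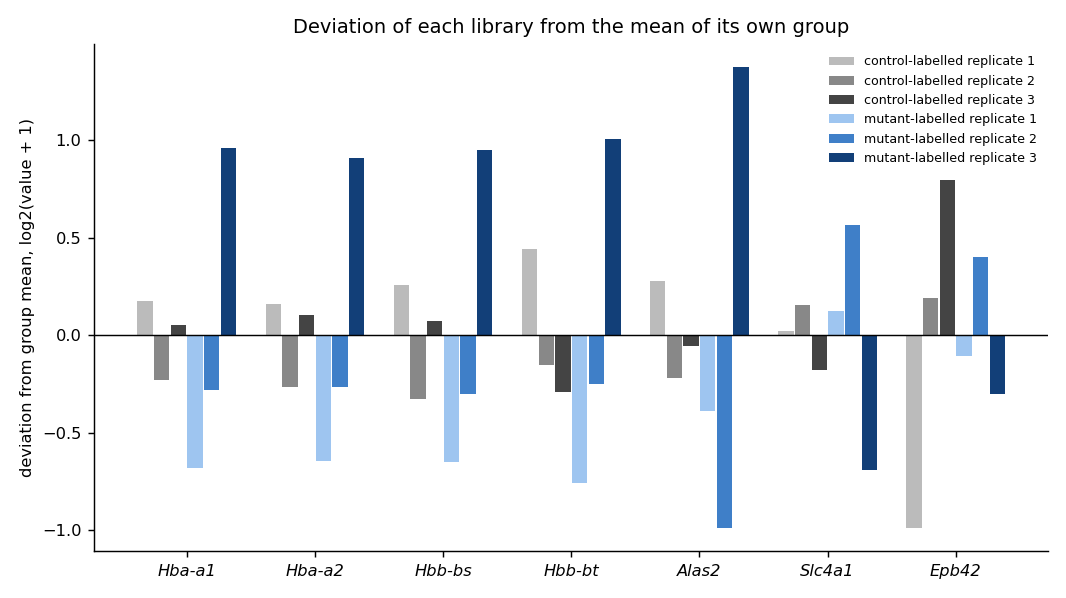
Deviation of each library from the mean of its own group on the log2(value + 1) scale, for the 7 genes (grey control-labelled, blue mutant-labelled). Mutant-labelled replicate 3 lies 0.91 to 1.38 above its group for the globins and Alas2 and 0.69 below it for Slc4a1.

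Endothelial markers were compared with the globins, since endothelial cells line the vessels that hold red cells. The 14 markers summed to 36060, 28764 and 23788 in the control-labelled libraries and 36567, 50805 and 39785 in the mutant-labelled libraries. None of the 14 was lower past the threshold by limma, edgeR or DESeq2, against 10.4% of all tested genes by limma. At an unadjusted p at or under 0.05 none was lower either, against 20.8%. Past the threshold 2 were higher, against 13.9% of all tested genes. They were Plvap, of fenestrated endothelium (log2 fold change 1.39 ± 0.17, adjusted p = 0.000506), and Flt1, a VEGF receptor (1.08 ± 0.13, adjusted p = 0.000476). At an unadjusted p at or under 0.05 and any size, 8 of the 14 were higher, against 24.2% of all tested genes. Among the 8 were Egfl7 (0.84, adjusted p = 0.000664) and Pecam1 (0.47), while Cdh5 had a log2 fold change of 0.16. The globin sum was 2.11, 1.89 and 2.83 times the endothelial sum in the control-labelled libraries and 0.138, 0.130 and 0.391 times in the mutant-labelled ones, so that the ratio of the means was 10.4 against 7.27 for the globin sum alone. Without mutant-labelled replicate 3 they were 17.0 and 11.3. Between the groups, skeletal muscle genes went the other way from the globins. Past the threshold 7 of 8 markers were higher, against 13.9% of all tested genes, with sums of 37930, 7517 and 29304 against 110415, 50287 and 354695. Within the groups, mutant-labelled replicate 3 was the highest and control-labelled replicate 2 the lowest of its group, as for the globin sum. The lowest mutant-labelled library was replicate 2 for the muscle sum and replicate 1 for the globin sum. The deviations of the 8 markers had r between 0.72 and 0.81 with those of the mean of the 6 genes other than Epb42. Their part in the spread of the globins was not tested.

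**Figure D4:**
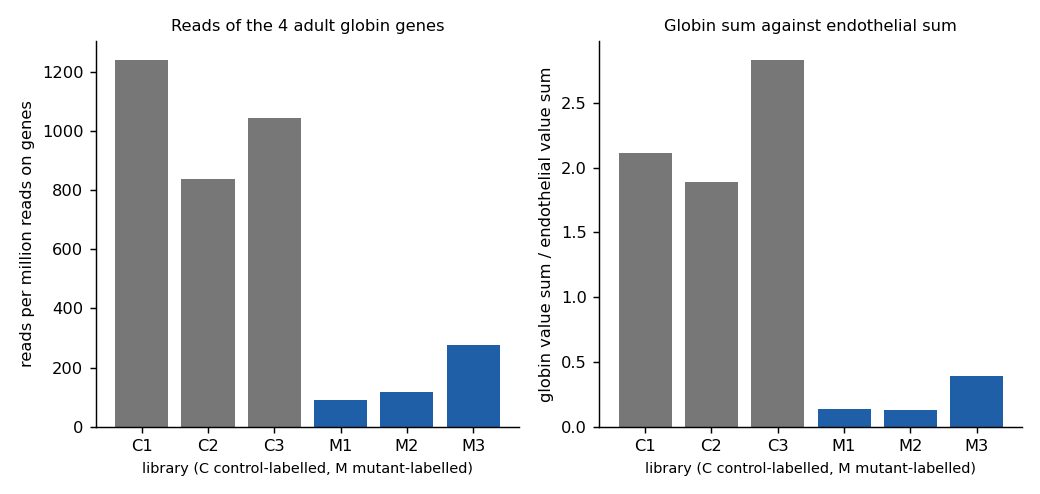
Reads of the 4 adult globin genes per 1000000 reads on genes (RPM, left) and the globin sum divided by the sum of 14 endothelial markers (right), as bars from 0 for each library (C control-labelled, grey; M mutant-labelled, blue). The mutant-labelled libraries reach at most 275 RPM and a ratio of 0.391, below the lowest control-labelled values of 838 and 1.89.

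Calls among other genes of red cells went in both directions. Among 17 tested genes of the red cell membrane, 4 were lower past the threshold and 3 were higher, against 10.4 and 13.9% of all tested genes. Their median log2 fold change was 0.10. Sptb, the beta spectrin of the membrane skeleton, fell from 1903, 1933 and 2268 to 280, 85.9 and 287 (−3.41 ± 0.42, adjusted p = 0.000474). Its values did not overlap. Art4, which carries the Dombrock blood group, fell (−2.50, adjusted p = 0.000237), as did Gypc, a glycophorin (−1.51, adjusted p = 0.000167), and Ermap (−1.33, adjusted p = 0.0151). Gypc is also made outside red cells, and its normalised read count in the mutant-labelled libraries stayed at 5144 to 7784. The 3 that rose were Add2, an adducin of the membrane skeleton (2.10, adjusted p = 0.000572), Tmod1, which caps actin filaments also in muscle (1.91, adjusted p = 0.0131), and the ankyrin Ank1 (1.55, adjusted p = 0.0513). The call of Ank1 was lost without control-labelled replicate 1 and without mutant-labelled replicates 1 or 3, with values of 1.41, 1.52 and 1.0. Rhag, an Rh-associated protein of the red cell membrane, had a normalised read count of at most 3.86 in every library.

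Among 14 tested genes of late red cell development, 2 were lower past the threshold and 1 was higher, against 10.4 and 13.9% of all tested genes. Their median was −0.63. Those that fell were Ypel4 (log2 fold change −1.76, adjusted p = 0.00454) and Tmcc2 (−1.15, adjusted p = 0.000378), and Car2, a carbonic anhydrase, rose by 1.26 (adjusted p = 0.0575), a call that was lost without control-labelled replicate 1 or mutant-labelled replicates 1 or 2 (0.80, 1.11 and 1.22). Counting changes of any size at an unadjusted p at or under 0.05, 9 of the 14 were lower, against 20.8% of all tested genes (24.2% were higher by the same criterion), among them Bpgm, which makes the bisphosphoglycerate that lowers the oxygen affinity of hemoglobin (−0.96, adjusted p = 0.000816), and the mitophagy receptor Bnip3l (−0.84, adjusted p = 0.00209). Both are also made in other tissues. Hemgn, Car1 and Trim58, which are more particular to red cells, stayed under the filter. All 3 were at 0 in every control-labelled library, and in the mutant-labelled libraries Hemgn had 4.36, 15.4 and 2.97, Car1 at most 1.93 and Trim58 at most 3.86. Ahsp had no row in the table.

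Among 7 tested regulators of the erythroid lineage, 2 were lower past the threshold and none was higher, against 10.4 and 13.9% of all tested genes. Their median was 0.73. Klf1, the factor that activates the adult beta globin gene, had 24.4, 15.1 and 43.1 in the control-labelled libraries and 4.36, 0 and 1.98 in the mutant-labelled libraries, from 0 to 34 reads. The groups did not overlap, and the log2 fold change was −3.38 ± 0.89 (adjusted p = 0.0189). With so few reads its size depends on the setting, at −4.69 with a pseudocount of 0.1, −1.58 with a pseudocount of 10, and −3.93 to −2.71 with single libraries left out, all past the threshold. Epor, the erythropoietin receptor, fell by 1.18 (adjusted p = 0.0562), a call that was lost without control-labelled replicate 1 or 3 (−1.07 and −1.16) or mutant-labelled replicate 3 (−0.81). By edgeR and DESeq2, too, 0 of the 7 were higher past the threshold. At an unadjusted p at or under 0.05 and any size, 3 were higher and 2 lower, against 24.2 and 20.8% of all tested genes. Among those higher were Tal1 (0.75) and Lmo2 (0.79), which endothelial cells also use. Gata1, the main factor of the lineage, stayed under the filter at 0 to 13.3.

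Of the 12 tested genes of heme synthesis other than Alas2, 1 was lower past the threshold and none was higher by limma, edgeR or DESeq2. By limma, 10.4% of all tested genes were lower and 13.9% higher. The median of the list was −0.22. The lower gene was Alad, the enzyme after Alas2 in the pathway, with 5698, 22312 and 7312 against 5429, 4938 and 2746 (−1.22 ± 0.48, adjusted p = 0.0791). Control-labelled replicate 2 set its size, since without it the value was −0.62 and the call was lost, as it also was without mutant-labelled replicate 2 or 3 (−1.34 and −0.91). At any size, 5 were lower and 2 higher at an unadjusted p at or under 0.05, against 20.8 and 24.2% of all tested genes. Ppox had −0.84 (adjusted p = 0.00103) and Urod −0.65 (adjusted p = 0.00554), whereas Cpox, the enzyme between them, had 0.90 (adjusted p = 0.00158). Alas1, which does the work of Alas2 outside red cells, had 2032 to 2294 normalised reads in the control-labelled and 2311 to 2539 in the mutant-labelled libraries (0.17 ± 0.10, adjusted p = 0.223).

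The list of other globins held 3 tested genes, with a median of −0.12. Past the threshold 1 of them was higher, against 13.9% of all tested genes. Mb, the myoglobin of muscle, rose from 121, 5.67 and 92.5 to 252, 133 and 729 (2.78 ± 1.08, adjusted p = 0.0778), a call that was lost without control-labelled replicate 2 (1.45) and without mutant-labelled replicates 1 or 3 (2.88 and 2.12), and with eBayes run without the trend. Cygb, the cytoglobin of fibroblasts and pericytes, had −0.12 ± 0.23, and Ngb, the neuroglobin, −1.10 ± 0.52 (adjusted p = 0.138). None of these 3 was lower past the threshold by limma, edgeR or DESeq2, nor at an unadjusted p at or under 0.05. Of all tested genes 10.4 and 20.8% were, by limma. The embryonic and theta chains Hba-x, Hbb-y, Hbb-bh1, Hbb-bh2, Hbq1a and Hbq1b stayed under the filter, at 0 in every library for Hba-x, Hbb-bh1, Hbb-bh2 and Hbq1a.

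Of 8 tested genes of iron uptake and storage, 1 was lower past the threshold, against 10.4% of all tested genes. None was higher by limma, edgeR or DESeq2 (13.9% of all by limma), nor at an unadjusted p at or under 0.05 (24.2%). The median was −0.34. The lower gene was Slc40a1, the iron exporter ferroportin (−1.08 ± 0.31, adjusted p = 0.0286), whose call was lost without control-labelled replicate 1 (−0.77). Tfrc, the transferrin receptor by which red cell precursors take up iron, had 110, 96.4 and 120 against 121, 26.1 and 108, overlapping values. The ferritin genes Fth1 and Ftl1 differed by −0.34 and −0.35 (adjusted p = 0.0212 and 0.0238).

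The genes that clear hemoglobin and heme moved both ways. Of 9 tested, 2 were lower past the threshold and 2 were higher, against 10.4 and 13.9% of all tested genes. Their median was −0.03. Cd163, the macrophage receptor for hemoglobin bound to haptoglobin, fell from 953, 357 and 423 to 200, 119 and 106 (−1.94 ± 0.40, adjusted p = 0.00636), and Slc48a1, a heme transporter, fell by 1.06 (adjusted p = 9.99e-05). Hmox1, the heme oxygenase induced by heme, had 11051 to 11482 in the control-labelled and 5566 to 8001 in the mutant-labelled libraries, a difference of −0.71 ± 0.13 (adjusted p = 0.00378) that was below 2-fold. The plasma scavengers rose: Hpx, hemopexin, by 1.75 (adjusted p = 0.0156), and Hp, haptoglobin, by 2.70 (adjusted p = 0.0513), with 220, 2780 and 310 in the mutant-labelled libraries. The call of Hp was lost by DESeq2, with eBayes without the trend and without control-labelled replicate 2 (2.23), and mutant-labelled replicate 2 lay far above the others, with 1.56 without it.

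**Figure D5:**
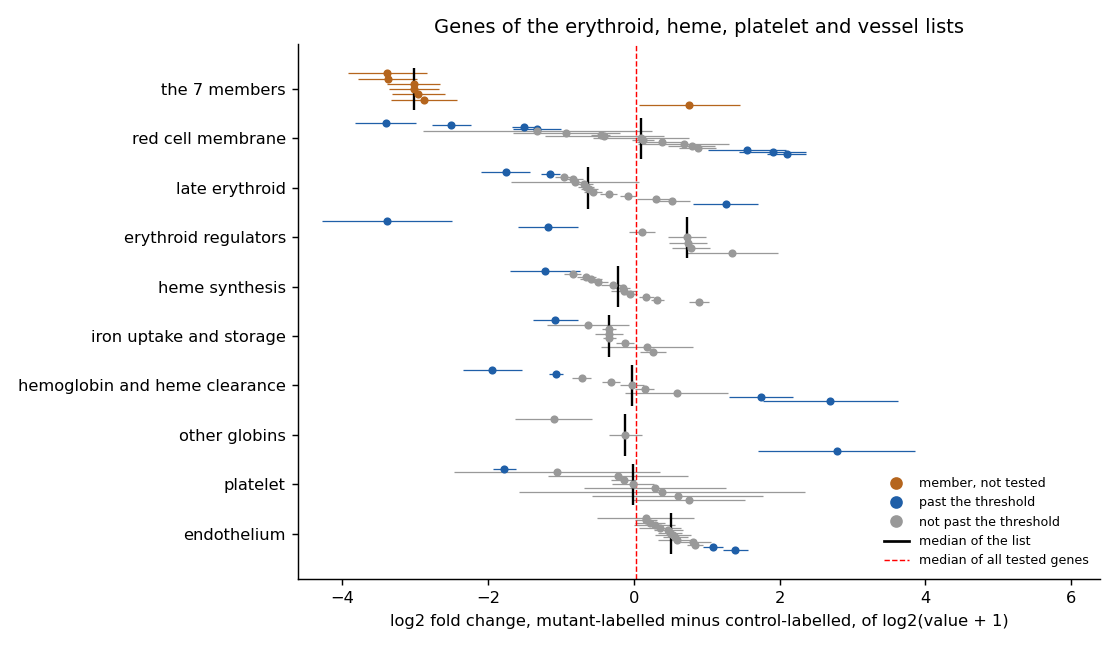
Log2 fold change (mutant-labelled minus control-labelled, bars ± SE, n = 3 per group) of the 7 genes and of the tested genes of 9 lists, with a line at each list's median and a dashed line at the median of all tested genes (0.03). The 7 genes have a median of −3.01, while the medians of the lists lie between −0.63 (late erythroid) and 0.73 (erythroid regulators).

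Markers of other blood cells were low or moved in both directions. Past the threshold, 10.4% of all tested genes were lower and 13.9% higher. Of 9 tested platelet genes, 1 was lower past the threshold, Pf4 (1451, 1059 and 1385 against 374, 350 and 404, −1.77 ± 0.16, adjusted p = 0.000104), which macrophages also make, and the list's median was −0.01. Its other defining genes Gp9, Gp5 and Ppbp were low in both groups, at 0 to 85.1. Mutant-labelled replicate 3, the highest of its group for the globins, was also apart for Tubb1 (8.73, 3.86 and 129 in the mutant-labelled libraries), Ppbp (8.0, 9.65 and 85.1) and Gp9 (0, 0 and 60.3). The deviations of the 9 tested platelet genes had r between −0.10 and 0.95 (median 0.52) with those of the mean of the 6 genes other than Epb42. Their part in the spread of the globins was not tested. Of 10 tested neutrophil genes, 1 was lower (Mmp8, −3.87 ± 0.58, adjusted p = 0.00127) and 2 were higher (Csf3r, 3.28, and Lcn2, 2.97), with a median of 1.03 and sums of 271 to 457 against 273 to 1195. Lcn2 had 64.7, 820 and 87.0 in the mutant-labelled libraries, so replicate 2 held most of the Lcn2 reads and the highest sum. The sums of the platelet list were 1751 to 2111 against 927 to 1403, and without Pf4 these come mostly from Itga2b (309 to 394) and Gp1bb (161 to 285), which overlapped between the groups. Of the macrophage markers, 2 of 10 were lower and 2 were higher, with sums of 19483 to 25057 against 20849 to 24360. Of the lymphocyte markers 2 of 8 were higher and none was lower, and of the mast cell markers 3 of 8 were higher and 1 was lower. Of the mural cell markers 0 of 8 were past the threshold by limma, edgeR or DESeq2. At an unadjusted p at or under 0.05 and any size, 1 of them was higher, against 24.2% of all tested genes.

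By the likeness of pattern, none of the 10 genes nearest to the mean of the 7 belonged to the erythroid and heme lists. Over the 6 libraries, the highest Pearson r of log2 levels among 16642 tested genes with a symbol were those of Ndufa1 and Ndufb11, subunits of the mitochondrial complex I (both 0.998), followed by Abcc5, Pcdhb5, 2310010J17Rik, Usp34, Acat3, Stx16, B4galt6 and Echs1. Their changes were mostly small beside those of the 7, with log2 fold changes from −2.56 (Acat3) to −0.37 (Ndufa1), and 70 genes had an r over 0.98. For the deviations from the group means the highest r were those of Zfp637 (0.9996), Eif1ax and Mthfsd (both 0.994), then Capza1, Emx2os, Ndufb11, Stbd1, Nkiras1, Barx2 and Efcab1. Over 6 libraries in 2 groups, 199 genes (1.20%) had an r over 0.9 on the deviations. Deviations of list genes were set against the mean of the 6 genes other than Epb42. In the lists of membrane, late erythroid, regulator, heme, iron, clearance and other globin genes, the median r was between −0.26 and 0.10. The highest r of a single gene in these lists was 0.95.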

How the data were processed

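Sciatic nerves of 3 control and 3 mutant animals were sequenced as 6 libraries. Per the study's methods the authors mapped paired reads with STAR 2.4.0 to mm10, counted those on constitutive regions of FAST DB genes and divided the counts by DESeq2 size factors, and the deposited table holds this signal per gene. Whole reads were recovered from it in every library (100% of the values within 0.01 of a whole number). The main test was limma 3.58.1 on log2(value + 1) with eBayes and trend, mutant minus control, for genes with a mean of at least 10 in at least 1 group, with Benjamini-Hochberg adjustment over all of them. edgeR 4.0.16 and DESeq2 1.42.0 (R 4.3.3) were run on the recovered reads as alternatives, and all 3 were tested on simulated data. Groups and replicate numbers come from the labels. Each library is from an independent animal per the study's design, and 3 against 3 cannot give an exact two-sided permutation p below 0.1. The 7 genes and the gene lists were chosen with earlier results of these data known. Genes named outside the lists are the 10 with the highest r to the mean of the 7, on levels and on deviations. The authors' filter against intergenic reads, splicing and editing were not analysed here. A few list genes are not reported individually. Figures were drawn with matplotlib 3.10.9.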

Additional observations from a re-analysis of the deposited data

How the results depend on the processing

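The median log2 fold change of the 7 genes stayed between −3.13 and −2.85 under other pseudocounts, scalings and tests. Leaving out single libraries gave −3.47 to −2.69. No log2 fold change of a named gene or of the 7 genes' median that was recomputed changed sign. The lower calls of the red cell membrane (4), platelet (1), neutrophil (1) and endothelial (0) lists were the same in number under every alternative run, and those of the other lists moved as follows. With libraries rescaled to the same total, which put the median of all genes at 0.20, lower calls went to 1 in the late erythroid list, to 0 in heme synthesis, to 0 in iron uptake and storage and to 1 in the clearance list, and rescaling to a total without hemoglobin and myelin genes gave 0 in iron and 1 in clearance. With the 75th percentile matched, which put the median at −0.09, 1 of the other globins and 3 late erythroid genes were lower. With an adjusted p at or under 0.05, lower calls went to 1 among the erythroid regulators and to 0 in heme synthesis, which also had 0 with eBayes without trend, and a minimum mean of 50 left 1 erythroid regulator. Leaving out single libraries, lower calls ranged from 2 to 3 in the late erythroid list (3 without control-labelled replicate 1 or mutant-labelled replicate 2), from 1 to 2 among the regulators, from 0 to 1 in heme synthesis, from 0 to 1 in the other globins and from 0 to 1 in iron. The cause was not tested. Rescaling to the same total ended the calls of Tmcc2 (−0.98), Alad (−1.06), Slc40a1 (−0.91) and Slc48a1 (−0.90), and eBayes without trend those of Mb, Alad and Hp. Slc4a1 moved to −2.36 with a pseudocount of 10, a setting that by construction shrinks genes with few reads. Of the single-gene values under other settings and with libraries left out, 33 lost their call and 431 kept it or, for genes without a call, stayed within their spread. Klf1 ranged from −4.69 to −1.58 over the alternatives other than leaving out a library, also a gene with few reads.

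Same-numbered libraries did not deviate together (r of −0.06, −0.06 and 0.01), so the numbers were not taken as pairs. With the replicate block, 2589 genes were lower and 3560 higher, against 2671 and 3580 without it, the median of the 7 genes was −3.01, and the count of lower calls did not move in any of the 10 lists it was run for. Epb42 rests on 4 to 24 reads per library and Klf1 on 0 to 34, and some list genes rest on fewer, such as Rhag on 0 to 4.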
